A study of Mus musculus with 35 samples.

Results

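The ribosome biogenesis genes described here are 38 mouse genes whose products transcribe ribosomal DNA, modify and cut the ribosomal RNA, or assemble the small and large ribosomal subunits. They were chosen by name, with earlier results of these data known. Each was read through the brightest probe set annotated to that gene alone. Of the 38 genes, 37 had such a probe set among the 18820 genes measured; the only probe set of Tsr1 is also annotated to Srr, so Tsr1 was left out of the counts. All 37 lay above the first quartile of every array (4.13 to 4.24 on the log2 scale), with means over all arrays between 6.23 (Polr1e) and 10.56 (Npm1).

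Ribosomes are built in the nucleolus, where RNA polymerase I (Pol I) copies the ribosomal DNA into a long precursor RNA. Small nucleolar ribonucleoproteins (snoRNPs) of the box C/D and box H/ACA classes guide methylation and pseudouridylation of that precursor, and large assembly complexes fold it, cut it and add the ribosomal proteins. In the liver this machinery is known to be engaged when hepatocytes grow and regenerate, and many of its genes are textbook targets of the transcription factor MYC.

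The study profiled 3 mouse models of liver cancer on 35 Affymetrix arrays of whole-tissue RNA, 1 per sample, as log2 values that the authors had normalised by RMA. In the MYC model (5 tumors and 3 non-tumorous livers, NTL), mice combined a TRE-MYC transgene with LAP-tTA, which drives it from a liver-specific promoter, and ate doxycycline chow at 200 mg per kg until 8 weeks of age, which kept the transgene off; how old they were at collection, and which species the MYC sequence is from, is not given in the labels. In the DEN model (5 tumors, 5 NTL and 5 untreated controls), mice had received the carcinogen diethylnitrosamine (DEN) intraperitoneally at 10 mg per kg on day 15 of life and were examined at 9 months. In the LT model (3 tumors and 5 NTL), tg1223 mice, whose lymphotoxin alpha and beta transgenes are expressed specifically in the liver, were 12 months old. The LT and MYC models share 4 transgene-negative control livers, so every comparison of these models with controls rests on the same arrays. Of the DEN tumors, replicates 1 and 4, and likewise 3 and 5, share the stem of their mouse identifier, as do LT tumors 1 and 2, so they may come from the same animals. No tumor shares a stem with an NTL array, and the MYC NTL identifiers begin with WT, which leaves it unsettled whether those livers carried the transgenes.

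Array medians lay between 5.59 and 5.73, and Alb, the albumin gene that marks hepatocytes, lay between 13.59 and 13.78 in every array. Mki67, a marker of dividing cells, was higher in tumors than in NTL by 3.04 ± 0.41 in the MYC model, 2.11 ± 0.36 in DEN and 1.88 ± 0.41 in LT (log2 change ± SE; limma adjusted p 3.87e-06, 2.92e-05 and 0.00153). Of a list of 14 mitosis genes that includes it, 14, 13 and 11 were called higher in these comparisons. Xist was high in all 3 LT tumors, in LT NTL replicates 1, 3, 4 and 5, and in replicate 3 of each control group, and low in all MYC and DEN tumor and NTL arrays. The mouse Myc probe set read 8.88, 9.71, 9.56, 10.52 and 9.60 in MYC tumors, 9.48, 6.42 and 7.25 in MYC NTL and 7.29, 7.31, 7.18 and 9.56 in the shared controls. Of the MYC NTL and control arrays, 1 of each thus lay within the range of the tumors. These are whole-tissue samples, in which fewer cells of a type and less RNA per cell cannot be told apart.

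Against NTL, 20 of 37 genes were called higher and 0 lower in MYC tumors (25 and 0 at limma's unadjusted p under 0.05), 7 higher and 4 lower in DEN tumors, and 0 higher and 11 lower in LT tumors. A gene is called when its limma p, adjusted by the Benjamini-Hochberg method over all 18820 genes, is under 0.05. Among all genes, 11.5% were called higher and 10.3% lower in MYC, 15.6% and 16.7% in DEN, and 10.7% and 9.73% in LT. The median change of the 37 genes was 0.36 log2 units in MYC, -0.01 in DEN and -0.22 in LT, beside -0.03, -0.04 and -0.03 for all genes. There were 6 genes called higher in both MYC and DEN tumors (Polr1a, Polr1c, Nop56, Nop58, Npm1 and Nob1). They are 6 of the 20 called in MYC and 6 of the 7 in DEN. For all genes, the share called higher in both was not computed. Against DEN controls, Polr1c, Npm1 and Nob1 were also called higher in DEN tumors, and Polr1a, Nop56 and Nop58 were not.

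**Figure D1:**
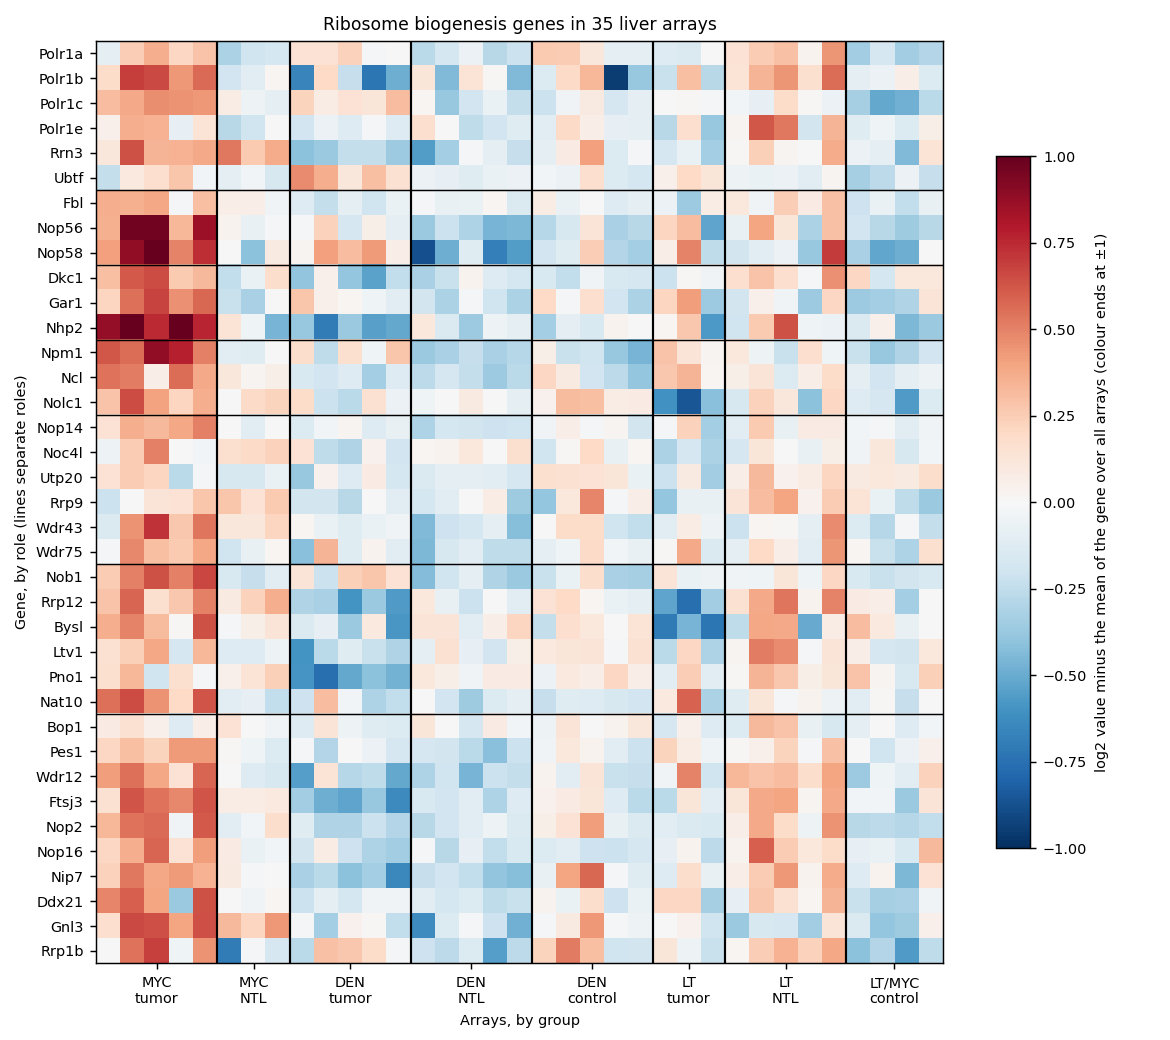
Log2 values of the 37 genes (rows, by role) in the 35 arrays (columns, by group), each gene centred on its mean over all arrays. Colour shows the distance from that mean, and the warm block at the left is the 5 MYC tumors, whose medians over the 37 genes lay between 0.21 and 0.51; among other arrays the LT NTL reached 0.26.

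**Figure D2:**
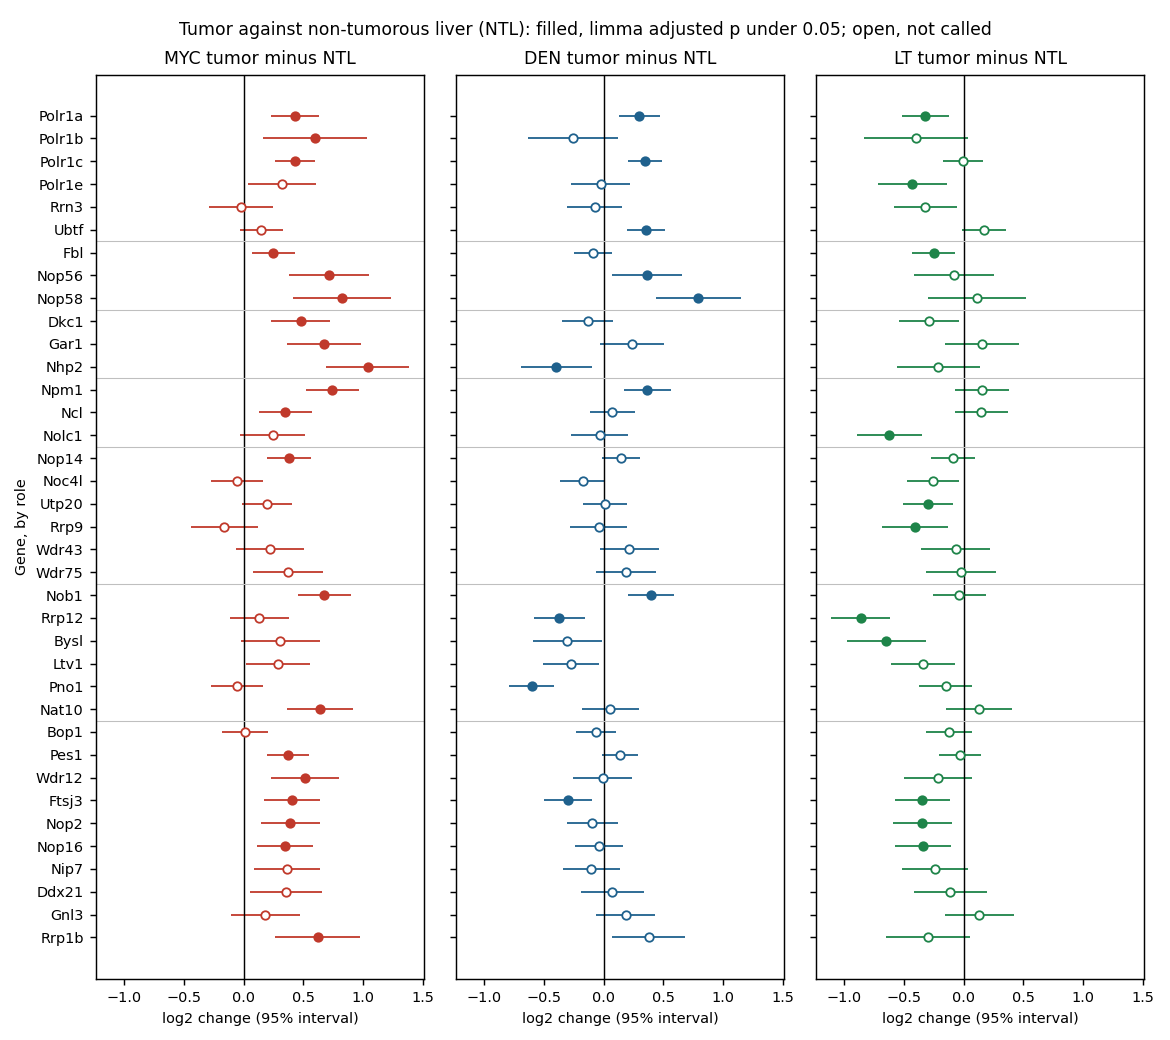
Tumor minus NTL change of each gene in the 3 models (log2 units; points, limma estimates; lines, 95% intervals), filled where the adjusted p is under 0.05. Filled points are all to the right of 0 in MYC (20 genes), on both sides in DEN (7 higher, 4 lower) and all to the left in LT (11 genes).

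In the MYC model, which asks what tumors driven by this oncogene look like, 29 of the 37 genes were called higher against NTL, controls or both. In 17 of the 37 genes, every MYC tumor lay above every NTL array, beside 13.0% of all genes. Against the shared controls 29 of 37 genes were called higher and 0 lower, beside 10.2% and 10.3% of all genes, with a median change of 0.49. All 20 genes called against NTL were also called against controls.

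Of the 6 genes of Pol I and its factors, 3 were called higher against NTL and 5 against controls. Polr1a, the largest subunit of Pol I, read 8.04, 8.38, 8.50, 8.34 and 8.42 in the 5 MYC tumors, 7.82, 7.94 and 7.96 in MYC NTL and 7.79, 7.97, 7.79 and 7.84 in the shared controls. The tumors lay above both other groups without overlap, and the change against NTL was 0.43 ± 0.10 (adjusted p 0.00178). Polr1b, the other large catalytic subunit, read 8.54, 9.05, 9.02, 8.79 and 8.93 in the 5 MYC tumors, 8.17, 8.25 and 8.38 in MYC NTL and 8.26, 8.30, 8.43 and 8.22 in the shared controls. It was higher by 0.60 ± 0.21 against NTL (adjusted p 0.0427), again with no overlap. Polr1c, a subunit shared with RNA polymerase III, read 9.13, 9.20, 9.28, 9.27 and 9.25 in the 5 MYC tumors, 8.89, 8.77 and 8.73 in MYC NTL and 8.49, 8.31, 8.34 and 8.55 in the shared controls. Its 3 groups formed steps that did not overlap: tumors exceeded NTL by 0.43 ± 0.08 (adjusted p 0.000281), and NTL exceeded controls by 0.37 ± 0.09 (adjusted p 0.0088).

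Rrn3, the initiation factor that carries Pol I to its promoter, read 8.65, 9.18, 8.88, 8.89 and 8.92 in the 5 MYC tumors, 9.07, 8.80 and 8.91 in MYC NTL and 8.48, 8.45, 8.10 and 8.68 in the shared controls. Tumors and NTL overlapped, with a difference of -0.02 ± 0.13, while NTL lay above every control by 0.50 ± 0.14 (adjusted p 0.0321) and tumors exceeded controls by 0.48 ± 0.12 (adjusted p 0.00447). Ubtf, which binds along the active ribosomal DNA repeats, read 8.83, 9.17, 9.24, 9.35 and 9.04 in the 5 MYC tumors, 8.97, 9.04 and 8.91 in MYC NTL and 8.74, 8.81, 9.01 and 8.84 in the shared controls. The tumors overlapped both groups, and the change was called against controls (0.27 ± 0.08, adjusted p 0.0177) but not against NTL (0.15 ± 0.09). The sixth gene, the Pol I subunit Polr1e, was not called (0.32 ± 0.14 against NTL and 0.23 ± 0.13 against controls).

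All 6 snoRNP core genes were called higher in MYC tumors against both NTL and controls. The methyltransferase of the box C/D class is fibrillarin, Fbl, which read 8.86, 8.85, 8.88, 8.48 and 8.80 in the 5 MYC tumors, 8.56, 8.56 and 8.46 in MYC NTL and 8.29, 8.43, 8.25 and 8.42 in the shared controls. Apart from replicate 4, the tumors lay above all NTL arrays, and the change against NTL was 0.25 ± 0.09 (adjusted p 0.0427). A second own probe set of Fbl, nearly as bright, changed by 0.44 against NTL. Nop56, a scaffold protein of the same particles, read 8.96, 9.57, 9.57, 8.94 and 9.46 in the 5 MYC tumors, 8.64, 8.53 and 8.59 in MYC NTL and 8.42, 8.33, 8.25 and 8.33 in the shared controls. Tumor replicates 2, 3 and 5 stood highest and no tumor overlapped another group (change against NTL 0.72 ± 0.17, adjusted p 0.0021). Its partner Nop58 read 7.56, 8.04, 8.19, 7.65 and 7.89 in the 5 MYC tumors, 7.15, 6.74 and 7.24 in MYC NTL and 6.83, 6.63, 6.66 and 7.15 in the shared controls. It was higher by 0.83 ± 0.20 against NTL and by 1.05 ± 0.19 against controls (adjusted p 0.00348 and 0.000106), with no overlap.

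In the box H/ACA class, Nhp2, an RNA-binding core protein, showed the largest change of the 37 genes. It read 8.43, 8.60, 8.30, 8.70 and 8.31 in the 5 MYC tumors, 7.69, 7.51 and 7.09 in MYC NTL and 7.41, 7.60, 7.10 and 7.18 in the shared controls. The lowest tumor stood above the highest NTL and control array, and the change was 1.04 ± 0.17 against NTL and 1.15 ± 0.16 against controls (adjusted p 5.34e-05 and 2.87e-06). Dkc1, the pseudouridine synthase of these particles, read 7.76, 8.07, 8.11, 7.72 and 7.78 in the 5 MYC tumors, 7.21, 7.39 and 7.63 in MYC NTL and 7.66, 7.28, 7.56 and 7.56 in the shared controls. Its tumors were above both groups by smaller steps (0.48 ± 0.12 against NTL, adjusted p 0.00472). Gar1, the small protein that completes the core, read 6.81, 7.14, 7.27, 7.05 and 7.17 in the 5 MYC tumors, 6.37, 6.27 and 6.60 in MYC NTL and 6.23, 6.25, 6.29 and 6.72 in the shared controls. Control replicate 4 came closest to the tumors without reaching them, and the change against NTL was 0.67 ± 0.15 (adjusted p 0.00162).

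Nucleophosmin (Npm1), an abundant nucleolar chaperone, read 11.18, 11.12, 11.45, 11.34 and 11.07 in the 5 MYC tumors, 10.46, 10.44 and 10.57 in MYC NTL and 10.34, 10.18, 10.26 and 10.37 in the shared controls. The lowest tumor stood above the highest array of both other groups, with changes of 0.74 ± 0.11 against NTL and 0.94 ± 0.10 against controls (adjusted p 1.5e-05 and 6.03e-08). Its 4 own probe sets gave changes of 0.74 to 0.85 against NTL; Npm1 has many processed pseudogenes, and probes may not tell them from the gene. Nucleolin (Ncl), an RNA-binding protein of the same compartment, read 10.48, 10.45, 10.01, 10.50 and 10.32 in the 5 MYC tumors, 10.05, 9.97 and 10.00 in MYC NTL and 9.85, 9.75, 9.85 and 9.89 in the shared controls. Tumor replicate 3 fell among the NTL arrays and the other 4 tumors were above them (change 0.35 ± 0.11, adjusted p 0.0206). The snoRNP chaperone Nolc1 read 8.00, 8.37, 8.12, 7.93 and 8.08 in the 5 MYC tumors, 7.71, 7.91 and 7.94 in MYC NTL and 7.59, 7.55, 7.15 and 7.58 in the shared controls. Its tumors overlapped NTL (0.25 ± 0.13, not called) and were clear of the controls (0.63 ± 0.12, adjusted p 0.000368).

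**Figure D3:**
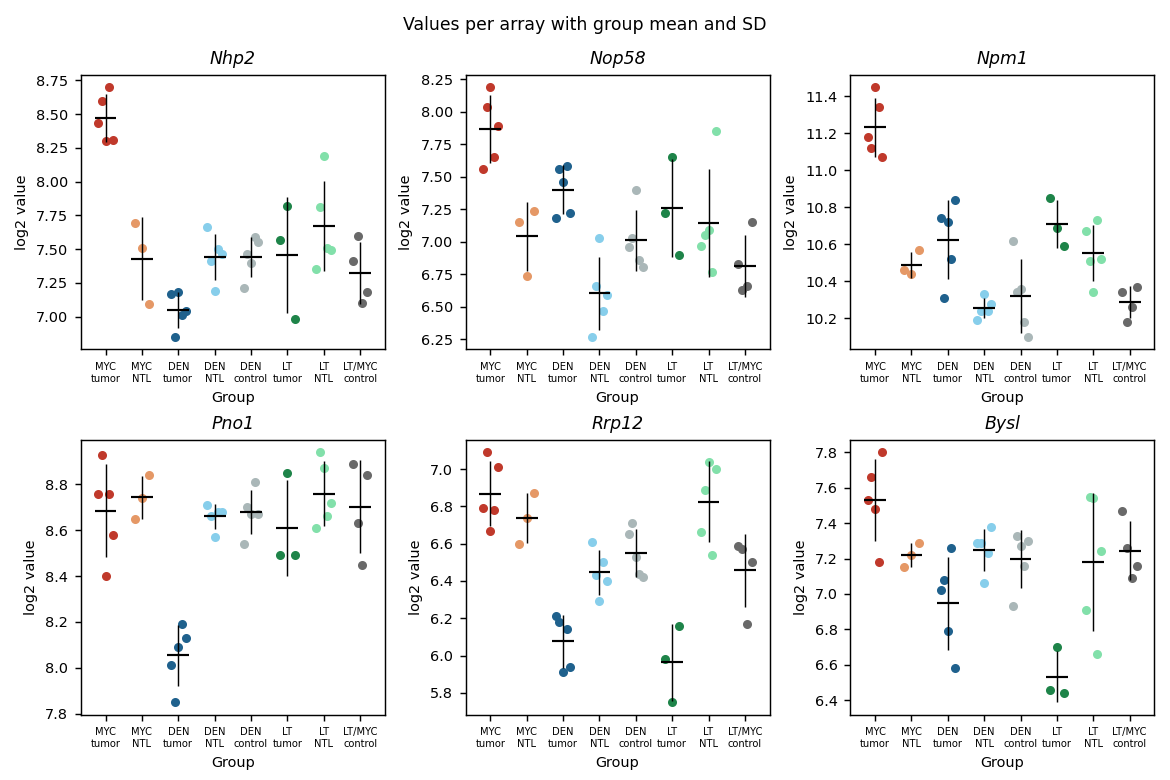
Log2 values of 6 genes in every array, by group (points, arrays; horizontal lines, means; vertical lines, SD). Against the NTL of their own model, MYC tumors lie higher without overlap in Nhp2, Nop58 and Npm1, DEN tumors lower in Pno1, and LT tumors lower in Rrp12 and, with 1 NTL array inside their range, in Bysl. DEN tumors also lie clear of their NTL in Nop58 (higher) and in Nhp2 and Rrp12 (lower). Across models, DEN and LT arrays reach the range of the MYC tumors in Nop58, and DEN tumors that of the LT tumors in Rrp12 and Bysl.

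Of 6 members of the small subunit processome, the complex that makes the first cuts of the precursor, only Nop14 was called against NTL (0.38 ± 0.09, adjusted p 0.00305), and Wdr43 and Wdr75 joined it against controls (0.54 ± 0.13 and 0.37 ± 0.13). Noc4l, Utp20 and Rrp9 were called in neither comparison and had changes of -0.06 ± 0.11, 0.19 ± 0.10 and -0.16 ± 0.14 against NTL. Whether the groups of genes differ from each other was not tested.

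Among 6 genes of later small subunit assembly, 2 were called higher against NTL. Nob1, the nuclease that makes the final cut of the small subunit RNA, read 7.92, 8.17, 8.30, 8.17 and 8.33 in the 5 MYC tumors, 7.51, 7.43 and 7.55 in MYC NTL and 7.51, 7.44, 7.48 and 7.51 in the shared controls. The groups were clearly apart, by 0.67 ± 0.11 against NTL (adjusted p 4.52e-05). Nat10, which acetylates the small subunit RNA, read 8.66, 8.76, 8.56, 8.31 and 8.74 in the 5 MYC tumors, 8.00, 8.03 and 7.86 in MYC NTL and 8.00, 8.12, 7.88 and 8.11 in the shared controls. It was higher by 0.64 ± 0.14 (adjusted p 0.000912), with every tumor above NTL and controls.

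Pno1, the partner of Nob1, was not called and read 8.76, 8.93, 8.40, 8.76 and 8.58 in the 5 MYC tumors, 8.65, 8.74 and 8.84 in MYC NTL and 8.89, 8.63, 8.45 and 8.84 in the shared controls. The groups overlapped throughout (-0.06 ± 0.11 against NTL), and the dimmer probe set of Pno1 changed by -0.33 against NTL. Rrp12, an export factor of both subunits, read 6.79, 7.09, 6.67, 6.78 and 7.01 in the 5 MYC tumors, 6.60, 6.74 and 6.87 in MYC NTL and 6.59, 6.57, 6.17 and 6.50 in the shared controls. It was called against controls alone (0.41 ± 0.11, adjusted p 0.00759; 0.13 ± 0.12 against NTL). Bysl, an assembly factor that leaves the pre-ribosome late, read 7.53, 7.66, 7.48, 7.18 and 7.80 in the 5 MYC tumors, 7.15, 7.22 and 7.29 in MYC NTL and 7.47, 7.26, 7.09 and 7.16 in the shared controls. Tumors other than replicate 4 were above NTL, and the change of 0.31 ± 0.16 was not called. Ltv1, a further assembly factor, was not called either (0.29 ± 0.13).

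In large subunit assembly, 6 of 10 genes were called higher against NTL and 9 against controls. Pes1, Bop1 and Wdr12 form a complex needed to process the large subunit RNAs. Pes1 read 7.99, 8.09, 8.01, 8.21 and 8.21 in the 5 MYC tumors, 7.80, 7.74 and 7.65 in MYC NTL and 7.78, 7.59, 7.73 and 7.84 in the shared controls. Its tumors were higher without overlap (0.37 ± 0.09 against NTL, adjusted p 0.00253). A second, much dimmer probe set of Pes1 changed by -0.19 against NTL, and the average of both by 0.09 (limma adjusted p 0.384). Bop1 read 8.65, 8.72, 8.62, 8.44 and 8.63 in the 5 MYC tumors, 8.71, 8.57 and 8.53 in MYC NTL and 8.47, 8.56, 8.44 and 8.54 in the shared controls. These values overlapped, with a change of 0.01 ± 0.10 against NTL. Wdr12, the third member, was higher by 0.51 ± 0.14 (adjusted p 0.00845).

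Both RNA methyltransferases of the large subunit rose. Ftsj3 read 7.71, 8.19, 8.10, 8.04 and 8.19 in the 5 MYC tumors, 7.63, 7.63 and 7.66 in MYC NTL and 7.53, 7.53, 7.19 and 7.69 in the shared controls. Its NTL arrays were close together and below all tumors (change 0.41 ± 0.11, adjusted p 0.0106). Nop2 read 8.17, 8.38, 8.40, 7.80 and 8.45 in the 5 MYC tumors, 7.73, 7.81 and 8.01 in MYC NTL and 7.56, 7.57, 7.55 and 7.59 in the shared controls. Tumor replicate 4 lay among the NTL arrays and the other tumors above them (change 0.39 ± 0.12, adjusted p 0.0188). Rrp1b, a nucleolar protein of pre-ribosomes, read 6.43, 6.97, 7.11, 6.39 and 6.88 in the 5 MYC tumors, 5.73, 6.42 and 6.26 in MYC NTL and 6.02, 6.14, 5.86 and 6.18 in the shared controls. Tumor replicate 4 lay just below the highest NTL array (change 0.62 ± 0.17, adjusted p 0.00984).

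Nop16, a further large subunit factor, was called against NTL (0.35 ± 0.12, adjusted p 0.0287). The helicase Ddx21 (0.58 ± 0.14), Nip7 (0.48 ± 0.12) and nucleostemin, Gnl3 (0.71 ± 0.13), were called against controls only. Nucleostemin was also higher in MYC NTL than in controls (0.53 ± 0.15, adjusted p 0.037). With Polr1c and Rrn3 it makes 3 of 37 genes called higher and 0 lower in MYC NTL (8 and 1 at limma's unadjusted p under 0.05), beside 1.66% and 2.17% of all genes.

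Some of these calls rest on single arrays, each left out in turn (limma adjusted p in brackets, or its lowest and highest value). Against NTL, calls were lost for Polr1b without tumor 2, 3, 4 or 5 or NTL 1, 2 or 3 (0.051 to 0.142), Fbl without tumor 1, 2, 3 or 5 or NTL 1, 2 or 3 (0.0699 to 0.153), Dkc1 without NTL 1 (0.0595), Ncl without NTL 2 or 3 (0.0593 to 0.0794), Nop2 without tumor 5 or NTL 1 or 2 (0.0516 to 0.111), Nop16 without tumor 3 or 5 or NTL 2 or 3 (0.0549 to 0.111) and Rrp1b without NTL 1 (0.138). Against controls, they were lost for Polr1b without tumor 2, 3, 4 or 5 or control 1, 2, 3 or 4 (0.0507 to 0.0866), Ubtf without tumor 4 or control 1 or 2 (0.0515 to 0.0699), Dkc1 without tumor 2 or 3 or control 2 (0.0501 to 0.0884), Wdr75 without tumor 2, 3, 4 or 5 or control 2 or 3 (0.0574 to 0.16), Rrp12 without control 3 (0.0571) and Nop16 without tumor 3 or control 1, 2 or 3 (0.06 to 0.087). For NTL against controls, they were lost for Polr1c without NTL 1 (0.0872), Rrn3 without NTL 1, 2 or 3 or control 1, 2 or 3 (0.0537 to 0.197) and Gnl3 without NTL 1, 2 or 3 or control 1, 2 or 3 (0.0636 to 0.159). Of the 20 genes called against NTL, 13 kept their call whichever array was left out, among them Nhp2, Nop58, Nop56, Gar1, Npm1, Nob1, Nat10, Polr1a and Polr1c. With only the groups compared in the fit, the adjusted p against NTL was 0.129 for Fbl, 0.071 for Ncl, 0.105 for Nop2, 0.0543 for Nop16 and 0.0712 for Rrp1b. Against controls it was 0.119 for Ubtf, 0.0682 for Wdr75, 0.0879 for Nop16 and 0.0662 for Ddx21, and for NTL against controls it was 0.0548 for Rrn3.

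Markers of other cells were set beside these changes. In MYC tumors 6 of 13 hepatocyte markers were lower than in NTL, and their summed level was 16.53 to 16.70 in tumors and 16.78 to 16.80 in NTL on the log2 scale. The leukocyte sum was 10.91 to 11.61 in tumors and 10.79 to 11.09 in NTL, and 1 of 14 markers was called higher. The fibroblast and stellate cell sum was 9.34 to 10.68 in tumors and 10.31 to 10.62 in NTL, with 2 of 8 markers called lower. The endothelial sum was 11.67 to 11.99 in tumors and 12.00 to 12.32 in NTL, without overlap, with 1 of 8 markers called higher and 1 lower. The cholangiocyte sum was 7.32 to 8.05 in tumors and 7.87 to 7.96 in NTL. The mitosis sum was 11.10 to 12.69 in tumors and 9.04 to 9.25 in NTL, without overlap. Their part in the result was not tested.

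Other genes of the pathway, on lists outside the 38, were read in the same way. Among all genes, 11.5% were called higher and 10.3% lower in MYC tumors against NTL. Of 67 measured genes for cytosolic ribosomal proteins, 51 were called higher and 0 lower in MYC tumors against NTL, with a median change of 0.48, and 62 against controls. The largest changes were those of Rps12 (0.97 ± 0.12), Rpl14 (0.91 ± 0.15) and Rps24 (0.89 ± 0.11; adjusted p 6.18e-07, 7.36e-05 and 8.14e-07). Ribosomal protein genes have many near-identical pseudogenes, so single values are uncertain. Of 9 further Pol I genes 3 rose, led by Taf1d, a subunit of the promoter selectivity factor (1.18 ± 0.11, adjusted p 1.31e-08), with Tcof1, the treacle gene, at 0.47 ± 0.11 and Cd3eap at 0.35 ± 0.12. Taf1d and Cd3eap were called higher against controls as well. Tcof1 was not (0.08 ± 0.10, limma adjusted p 0.603), and MYC NTL lay below controls for Tcof1 (-0.39 ± 0.11, limma adjusted p 0.042). A list of 8 further snoRNP assembly and core genes held the core genes Nop10 and Snu13. Nop10 and Snu13 were not called against NTL (0.14 ± 0.13 and 0.25 ± 0.15) or controls. Of this list Naf1 (0.50 ± 0.18) and Ruvbl1 (0.48 ± 0.13) rose against NTL. Neither was called against controls (0.43 ± 0.16 and 0.23 ± 0.12, limma adjusted p 0.0569 and 0.166). Of 36 further small subunit genes 12 rose and 2 fell, and the largest changes ran both ways: the kinase Riok2 was lower (-0.67 ± 0.13, adjusted p 0.000488), while Riok1 (0.55 ± 0.11) and the helicase Ddx10 (0.51 ± 0.10) were higher. Of 40 further large subunit genes 14 rose and 1 fell; Nle1 (0.76 ± 0.10) and Gnl3l (0.70 ± 0.12) were higher and Zfp593 was lower (-0.67 ± 0.12). Of 12 genes of the RNA exosome, which trims precursor RNA, 5 rose against NTL and 0 against controls (4 higher and 2 lower at limma's unadjusted p under 0.05), with Mphosph6 (0.62 ± 0.16), Exosc2 (0.46 ± 0.12) and Exosc9 (0.40 ± 0.11) first by size. Of the genes named here, calls were lost for Cd3eap without tumor 1 or NTL 1 or 3 (0.0668 to 0.128), Naf1 without tumor 1, 2 or 4 or NTL 1 or 2 (0.0571 to 0.301), Ruvbl1 without NTL 3 (0.0713), Mphosph6 without NTL 1 (0.0557) and Exosc9 without NTL 1 (0.0869); without NTL 1 the change of Naf1 was 0.32, and with only those groups in the fit its adjusted p was 0.179.

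**Figure D4:**
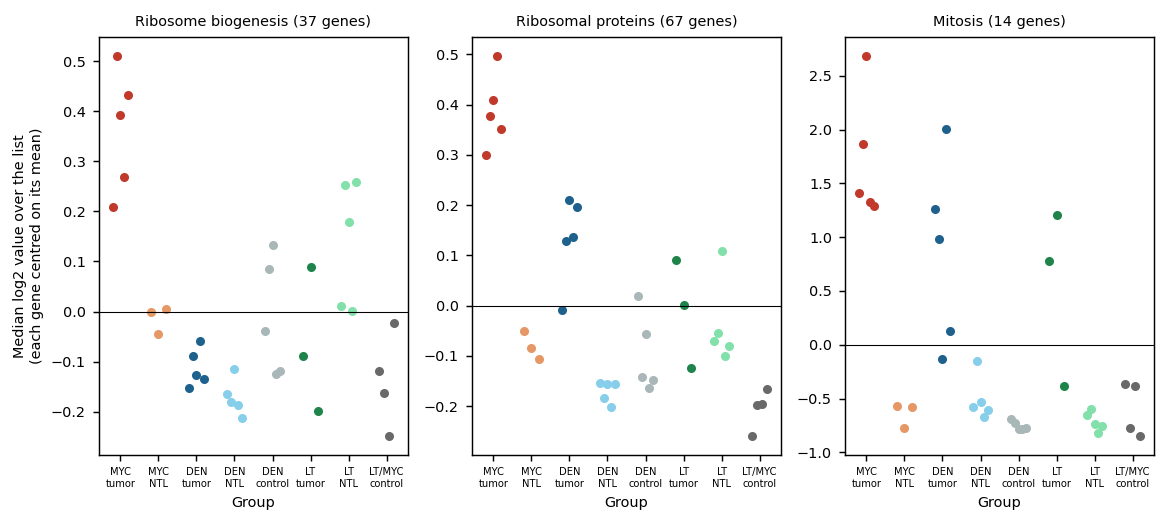
Median log2 value per array over 3 gene lists, by group, each gene centred on its mean over all arrays. MYC tumors lie above MYC NTL and controls in all 3 lists (0.21 to 0.51 for ribosome biogenesis, 0.30 to 0.50 for ribosomal proteins), while DEN tumors exceed DEN NTL for ribosomal proteins (-0.01 to 0.21, against -0.20 to -0.16) and overlap them for ribosome biogenesis (-0.15 to -0.06, against -0.21 to -0.11).

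Since the MYC protein is known to bind CACGTG, the canonical E-box, promoters were searched for these letters, which read the same on both strands. RefSeq promoter windows of GRCm38.p6 (250 bases before to 50 after a start site) were given for 34 of the 38 genes. The motif occurred in 8 of the 34 (23.5%), beside 9.6% of the 14749 measured genes with a window and 11.1% of 54 ribosomal protein genes. Among genes called higher in MYC tumors against NTL it occurred in 2 of 18 (11.1%), and among those not called in 5 of 15 (33.3%). The motif lay before the start site in Nop2 and Rrn3. In MYC tumors Nop2 was called against NTL and controls, and Rrn3 against controls alone. Rrn3 held the motif at -48 and at -215 from the start site, and only the nearer copy lies in the bases printed here. In Ltv1, Utp20, Pes1, Pno1, Tsr1 and Wdr43 the motif lay only after the start site. The sequences below show the 120 bases before the first annotated base of Nop2 and Rrn3, with the motif in capitals, and of Nhp2 and Nop58, which changed most against NTL and hold no such motif in their windows. All are on the plus strand of GRCm38.p6, from RefSeq, 5′ to 3′: Nop2 chr6:125131763-125131882, Rrn3 chr16:13780579-13780698, Nhp2 chr11:51619653-51619772 and Nop58 chr1:59684841-59684960.
Nop2: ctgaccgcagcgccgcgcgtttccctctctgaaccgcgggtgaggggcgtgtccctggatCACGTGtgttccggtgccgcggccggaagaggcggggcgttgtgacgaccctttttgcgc
Rrn3: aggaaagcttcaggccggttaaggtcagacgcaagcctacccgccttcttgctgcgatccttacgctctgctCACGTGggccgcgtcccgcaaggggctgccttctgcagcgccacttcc
Nhp2: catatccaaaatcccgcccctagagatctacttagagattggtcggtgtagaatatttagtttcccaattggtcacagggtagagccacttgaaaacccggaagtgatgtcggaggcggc
Nop58: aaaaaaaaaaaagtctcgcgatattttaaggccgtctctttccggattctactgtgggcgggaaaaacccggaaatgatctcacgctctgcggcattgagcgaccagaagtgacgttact
A match in these windows is a description of letters and does not show binding.

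The DEN tumors show how these genes stand in a carcinogen-driven tumor. Changes were mixed: 7 genes rose and 4 fell against NTL, and 4 rose and 8 fell against controls, where 15.0% of all genes were called higher and 15.6% lower. Against NTL the shares of the 37 genes were 18.9% higher and 10.8% lower, near the 15.6% and 16.7% of all genes. Every tumor lay above every NTL array in 6 of the 37 genes and below in 4, beside 10.7% and 11.7% of all genes. Nhp2 and Ftsj3, which rose in MYC tumors, were among those that fell.

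Among the Pol I genes, 3 rose. Ubtf read 9.54, 9.43, 9.18, 9.37 and 9.22 in DEN tumors, 9.01, 8.99, 8.95, 9.00 and 9.01 in DEN NTL and 9.04, 9.01, 9.24, 8.93 and 8.89 in DEN controls. The tumors lay above all NTL arrays, and the change was 0.36 ± 0.08 against NTL and 0.33 ± 0.08 against controls (adjusted p 0.000685 and 0.00152). Polr1c read 9.04, 8.89, 8.96, 8.94 and 9.13 in DEN tumors, 8.84, 8.44, 8.63, 8.75 and 8.58 in DEN NTL and 8.60, 8.78, 8.91, 8.65 and 8.73 in DEN controls. It was higher by 0.34 ± 0.07 against NTL and by 0.26 ± 0.07 against controls (adjusted p 0.000314 and 0.00479). Polr1a read 8.28, 8.28, 8.37, 8.12 and 8.14 in DEN tumors, 7.87, 7.96, 8.08, 7.86 and 7.92 in DEN NTL and 8.40, 8.39, 8.25, 8.04 and 8.05 in DEN controls. Its tumors exceeded NTL by 0.30 ± 0.08 (adjusted p 0.0068) and overlapped the controls (0.01 ± 0.08).

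Polr1b and Rrn3 were not called against NTL. Polr1b read 7.70, 8.56, 8.13, 7.64 and 7.87 in DEN tumors, 8.48, 7.92, 8.50, 8.37 and 7.92 in DEN NTL and 8.22, 8.55, 8.69, 7.41 and 7.98 in DEN controls, with wide overlap and a change of -0.26 ± 0.19 against NTL. Rrn3 read 8.13, 8.17, 8.30, 8.30 and 8.18 in DEN tumors, 7.98, 8.20, 8.52, 8.45 and 8.31 in DEN NTL and 8.44, 8.62, 8.95, 8.40 and 8.53 in DEN controls. The tumors overlapped NTL (-0.08 ± 0.11) and lay below every control (-0.37 ± 0.11, adjusted p 0.0111).

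Of the snoRNP genes, Nop58 rose and Nhp2 fell. Nop58 read 7.18, 7.56, 7.46, 7.58 and 7.22 in DEN tumors, 6.27, 6.66, 7.03, 6.47 and 6.59 in DEN NTL and 6.96, 7.03, 7.40, 6.86 and 6.81 in DEN controls. Every tumor lay above every NTL array, and the change of 0.79 ± 0.17 (adjusted p 0.000709) stood beside 0.83 ± 0.20 in MYC tumors. Against controls it was 0.39 ± 0.17 and not called. Nhp2 read 7.17, 6.85, 7.18, 7.01 and 7.04 in DEN tumors, 7.66, 7.41, 7.19, 7.50 and 7.46 in DEN NTL and 7.21, 7.46, 7.40, 7.59 and 7.55 in DEN controls. Tumors were below NTL and controls without overlap, with changes of -0.40 ± 0.15 and -0.40 ± 0.15 (adjusted p 0.0386 and 0.04). Nop56 read 8.59, 8.84, 8.44, 8.67 and 8.52 in DEN tumors, 8.24, 8.39, 8.30, 8.14 and 8.16 in DEN NTL and 8.32, 8.45, 8.74, 8.28 and 8.33 in DEN controls. It was above NTL by 0.37 ± 0.14, at an adjusted p of 0.0492.

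The remaining snoRNP genes were not called against either group. Fbl read 8.37, 8.26, 8.40, 8.30 and 8.43 in DEN tumors, 8.48, 8.42, 8.43, 8.52 and 8.35 in DEN NTL and 8.57, 8.43, 8.50, 8.37 and 8.40 in DEN controls (change against NTL -0.09 ± 0.08). Dkc1 read 7.06, 7.51, 7.07, 6.92 and 7.21 in DEN tumors, 7.13, 7.23, 7.49, 7.33 and 7.28 in DEN NTL and 7.30, 7.21, 7.42, 7.30 and 7.29 in DEN controls (-0.14 ± 0.11), and Gar1 read 6.87, 6.64, 6.61, 6.55 and 6.48 in DEN tumors, 6.41, 6.28, 6.58, 6.39 and 6.28 in DEN NTL and 6.79, 6.57, 6.76, 6.40 and 6.28 in DEN controls (0.24 ± 0.13). In each of these 3 genes the tumors overlapped both other groups.

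Npm1 read 10.74, 10.31, 10.72, 10.52 and 10.84 in DEN tumors, 10.19, 10.24, 10.33, 10.24 and 10.28 in DEN NTL and 10.62, 10.34, 10.36, 10.18 and 10.10 in DEN controls. Tumors other than replicate 2 stood above all NTL arrays, and the change was 0.37 ± 0.10 against NTL and 0.31 ± 0.10 against controls (adjusted p 0.00358 and 0.0142). Ncl read 9.79, 9.75, 9.81, 9.60 and 9.81 in DEN tumors, 9.68, 9.77, 9.70, 9.58 and 9.67 in DEN NTL and 10.15, 10.03, 9.75, 9.68 and 9.55 in DEN controls, and Nolc1 read 7.90, 7.50, 7.45, 7.87 and 7.66 in DEN tumors, 7.67, 7.72, 7.81, 7.72 and 7.62 in DEN NTL and 7.76, 8.03, 8.02, 7.79 and 7.80 in DEN controls. Neither was called, with changes of 0.07 ± 0.09 and -0.03 ± 0.12 against NTL and overlapping groups.

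In small subunit assembly 2 genes fell and 1 rose. Pno1 read 8.01, 7.85, 8.09, 8.19 and 8.13 in DEN tumors, 8.71, 8.66, 8.57, 8.68 and 8.68 in DEN NTL and 8.54, 8.70, 8.67, 8.81 and 8.67 in DEN controls. The highest tumor was below the lowest NTL and control array, with changes of -0.61 ± 0.09 against NTL and -0.63 ± 0.09 against controls (adjusted p 7.97e-06 and 3.92e-06); its dimmer probe set changed by -0.32 against NTL. Rrp12 read 6.21, 6.18, 5.91, 6.14 and 5.94 in DEN tumors, 6.61, 6.43, 6.29, 6.50 and 6.40 in DEN NTL and 6.65, 6.71, 6.53, 6.44 and 6.42 in DEN controls. Its changes were -0.37 ± 0.11 and -0.48 ± 0.11 (log2 change ± SE against NTL and controls; adjusted p 0.00658 and 0.000623), again without overlap. Nob1, by contrast, read 7.79, 7.45, 7.90, 7.94 and 7.81 in DEN tumors, 7.23, 7.46, 7.57, 7.36 and 7.29 in DEN NTL and 7.44, 7.60, 7.84, 7.34 and 7.33 in DEN controls. Tumor replicate 2 fell among the NTL arrays and the other tumors above them (0.40 ± 0.09 against NTL, adjusted p 0.00146).

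Bysl read 7.02, 7.08, 6.79, 7.26 and 6.58 in DEN tumors, 7.29, 7.29, 7.06, 7.23 and 7.38 in DEN NTL and 6.93, 7.33, 7.27, 7.16 and 7.30 in DEN controls, and Nat10 read 7.90, 8.42, 8.08, 7.80 and 7.86 in DEN tumors, 8.11, 7.92, 7.75, 7.97 and 8.02 in DEN NTL and 7.88, 7.99, 7.98, 7.95 and 7.92 in DEN controls. Neither was called against NTL (-0.31 ± 0.14 and 0.06 ± 0.12). Ltv1 was lower against controls (-0.40 ± 0.11, adjusted p 0.00706), and no member of the small subunit processome was called.

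In large subunit assembly only Ftsj3 was called against NTL. It read 7.21, 7.07, 7.03, 7.18 and 6.92 in DEN tumors, 7.41, 7.37, 7.45, 7.25 and 7.43 in DEN NTL and 7.60, 7.64, 7.68, 7.43 and 7.29 in DEN controls. The tumors lay below both groups, with changes of -0.30 ± 0.10 and -0.45 ± 0.10 (against NTL and controls; adjusted p 0.0204 and 0.000678). Nop2 read 7.71, 7.53, 7.53, 7.62 and 7.54 in DEN tumors, 7.56, 7.64, 7.73, 7.78 and 7.69 in DEN NTL and 7.89, 7.98, 8.25, 7.76 and 7.69 in DEN controls. It was lower than in controls (-0.33 ± 0.10, adjusted p 0.0154), with a change of -0.10 ± 0.10 against NTL. Nip7 was lower than in controls as well (-0.55 ± 0.12, adjusted p 0.000439).

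Pes1 read 7.77, 7.49, 7.78, 7.73 and 7.62 in DEN tumors, 7.62, 7.60, 7.52, 7.37 and 7.57 in DEN NTL and 7.75, 7.89, 7.82, 7.67 and 7.57 in DEN controls (0.14 ± 0.08 against NTL). Bop1 read 8.44, 8.70, 8.52, 8.45 and 8.43 in DEN tumors, 8.69, 8.57, 8.40, 8.65 and 8.54 in DEN NTL and 8.52, 8.70, 8.56, 8.60 and 8.68 in DEN controls (-0.06 ± 0.08). Rrp1b read 6.16, 6.72, 6.70, 6.61 and 6.41 in DEN tumors, 6.22, 6.17, 6.29, 5.88 and 6.17 in DEN NTL and 6.65, 6.95, 6.73, 6.23 and 6.25 in DEN controls, and its change against NTL of 0.38 ± 0.15 had an adjusted p of 0.0519. None of these 3 genes was called against NTL or controls.

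Between DEN NTL and DEN controls, limma called 0 of 37 genes (0 higher and 11 lower at an unadjusted p under 0.05), beside 0.0691% and 0.128% of all genes. The median change of the 37 genes was -0.15. With single arrays left out, calls against NTL were lost for Nop56 without tumor 1, 2, 4 or 5 or NTL 1, 3, 4 or 5 (0.0552 to 0.125), Nhp2 without tumor 2, 4 or 5 or NTL 1, 2, 4 or 5 (0.0525 to 0.102) and Ftsj3 without tumor 5 (0.0612). Against controls, they were lost for Rrn3 without control 3 (0.0555), Nhp2 without tumor 2, 4 or 5 or control 2, 3, 4 or 5 (0.0547 to 0.0986), Npm1 without tumor 5 or control 5 (0.0566 to 0.0586), Nob1 without tumor 3, 4 or 5 or control 1, 4 or 5 (0.0526 to 0.0933) and Nop2 without control 3 (0.0746). With arrays of a shared stem averaged, the adjusted p against NTL was 0.0685 for Nop56 and 0.0601 for Nhp2, and against controls 0.0618 for Nhp2, 0.0886 for Npm1 and 0.157 for Nob1. With only the DEN tumors and controls in the fit, it was 0.0942 for Npm1 and 0.132 for Nob1.

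Ribosomal protein genes were called in 1 direction in this model. Of 67, 47 were called higher and 0 lower in DEN tumors against NTL, with a median change of 0.29, and 34 against controls. Rps12 was higher by 0.78 ± 0.10, Rpl14 by 0.60 ± 0.13 and Rps24 by 0.47 ± 0.09 (adjusted p 4.07e-07, 0.000781 and 0.000238). Of the further small subunit genes 2 of 36 rose and 8 fell, among them Riok2 (-0.42 ± 0.12, adjusted p 0.00552). Of the further large subunit genes 8 of 40 rose and 0 fell. Among all genes, 15.6% were called higher and 16.7% lower in DEN tumors against NTL. Beside these changes, 4 of 14 leukocyte markers were lower and 1 higher in tumors, 4 of 6 cholangiocyte markers were higher, and 13 of 14 mitosis genes were higher. The leukocyte sum was 11.12 to 11.99 in tumors and 11.49 to 12.40 in NTL, and the cholangiocyte sum 10.05 to 10.49 in tumors and 8.17 to 8.45 in NTL. Of the cholangiocyte markers, Prom1 (3.49 ± 0.44) and Sox9 (1.93 ± 0.24) changed most. The keratins Krt7 and Krt19 were not called (0.03 ± 0.19 and -0.08 ± 0.16). Of 8 fibroblast and stellate cell markers, Acta2 (1.77 ± 0.46) and Col1a1 (0.84 ± 0.33) were higher and Lrat was lower (-1.59 ± 0.29; limma adjusted p 0.00318, 0.0472 and 9.68e-05), with sums of 10.53 to 11.40 in tumors and 10.30 to 10.66 in NTL. Of 13 hepatocyte markers, Apoa1 and Trf were called higher and Ttr and Asgr1 lower, with sums of 16.73 to 16.87 in tumors and 16.75 to 16.84 in NTL. The endothelial sum was 12.12 to 12.60 in tumors and 12.49 to 12.64 in NTL, with 3 of 8 markers called higher and 2 lower. Their part in the result was not tested.

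The LT tumors show these genes in a tumor arising under lymphotoxin expression. Of the 37 genes 11 fell and 0 rose against NTL; at limma's unadjusted p under 0.05, 0 rose and 15 fell. In 6 of the 37 genes every tumor lay below every NTL array, and in 1 above, beside 8.92% and 7.40% of all genes. Against controls 3 genes rose and 2 fell, beside 8.78% and 7.73% of all genes. The NTL arrays themselves lay above controls, with 4 genes called higher and 0 lower (1.37% and 1.04% of all genes) and a median of 0.24.

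Rrp12 fell most. It read 5.98, 5.75 and 6.16 in LT tumors, against 6.66, 6.89, 7.04, 6.54 and 7.00 in LT NTL. The tumors were below every NTL array and every control (-0.86 ± 0.12 and -0.50 ± 0.13, adjusted p 2.21e-05 and 0.00804). Bysl read 6.46, 6.70 and 6.44 in LT tumors, against 6.91, 7.55, 7.54, 6.66 and 7.24 in LT NTL. Tumor replicate 2 lay just above the lowest NTL array, all tumors lay below the controls, and the changes were -0.65 ± 0.16 and -0.72 ± 0.17 (adjusted p 0.00462 and 0.00462). Nolc1 read 7.11, 6.86 and 7.30 in LT tumors, against 7.56, 7.95, 7.83, 7.31 and 7.92 in LT NTL. It was below every NTL array (-0.63 ± 0.13, adjusted p 0.00123), with a change against controls of -0.38 ± 0.14 that was not called.

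Among Pol I genes, Polr1a read 8.01, 7.99 and 8.14 in LT tumors, against 8.28, 8.39, 8.43, 8.17 and 8.58 in LT NTL. Every NTL array was above every tumor and every control. The tumors were lower than NTL (-0.32 ± 0.10, adjusted p 0.0177), and NTL was higher than controls by 0.52 ± 0.09 (adjusted p 0.00174). Polr1c read 8.82, 8.83 and 8.80 in LT tumors, against 8.79, 8.74, 9.00, 8.83 and 8.76 in LT NTL. Tumors and NTL overlapped and both stood above the controls, by 0.39 ± 0.09 and 0.40 ± 0.08 (adjusted p 0.00238 and 0.00336).

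Ubtf read 9.12, 9.27 and 9.19 in LT tumors, against 9.02, 9.00, 9.01, 8.96 and 9.10 in LT NTL. The tumors were above both groups, and the change was called against controls (0.34 ± 0.09, adjusted p 0.0136) but not against NTL (0.17 ± 0.09). Polr1b read 8.14, 8.66 and 8.08 in LT tumors, against 8.50, 8.70, 8.80, 8.52 and 8.92 in LT NTL, and Rrn3 read 8.37, 8.47 and 8.20 in LT tumors, against 8.55, 8.78, 8.57, 8.54 and 8.91 in LT NTL. Polr1b overlapped, Rrn3 did not, and neither was called (-0.40 ± 0.21 and -0.32 ± 0.13). Polr1e was lower in tumors than in NTL (-0.43 ± 0.14, adjusted p 0.0286).

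Of the snoRNP genes only Fbl was called. It read 8.44, 8.13 and 8.57 in LT tumors, against 8.60, 8.46, 8.74, 8.58 and 8.79 in LT NTL. Tumor replicate 2 was lowest and tumor replicate 3 lay among the NTL arrays; the change of -0.25 ± 0.09 (adjusted p 0.042) became -0.13 without tumor replicate 2 (adjusted p 0.384). A second own probe set of Fbl, nearly as bright, changed by -0.09, and the average of both by -0.17 (limma adjusted p 0.11). Nop56 read 8.82, 8.92 and 8.08 in LT tumors, against 8.53, 9.00, 8.73, 8.29 and 8.90 in LT NTL (-0.08 ± 0.17). Nop58 read 7.22, 7.65 and 6.90 in LT tumors, against 6.97, 7.05, 7.09, 6.77 and 7.85 in LT NTL (0.11 ± 0.20). In both genes tumor replicates 1 and 2 were above replicate 3, which lay below all NTL arrays for Nop56 and among them for Nop58.

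The box H/ACA genes were not called. Nhp2 read 7.57, 7.82 and 6.98 in LT tumors, against 7.35, 7.81, 8.19, 7.51 and 7.49 in LT NTL (-0.22 ± 0.17), Dkc1 read 7.24, 7.47 and 7.42 in LT tumors, against 7.62, 7.74, 7.62, 7.44 and 7.91 in LT NTL (-0.29 ± 0.12), and Gar1 read 6.81, 7.01 and 6.23 in LT tumors, against 6.41, 6.64, 6.56, 6.23 and 6.80 in LT NTL (0.16 ± 0.15). Tumors overlapped NTL in all 3.

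Npm1 read 10.85, 10.69 and 10.59 in LT tumors, against 10.67, 10.51, 10.34, 10.73 and 10.52 in LT NTL. It overlapped NTL (0.15 ± 0.11) and exceeded every control (0.42 ± 0.12, adjusted p 0.0131). With Polr1c and Ubtf it makes the 3 genes called higher against controls in the tumors of all 3 models. These are also all the genes of the 37 called higher in LT tumors against controls, where 8.78% of all genes were. The share of all genes called in all 3 models was not computed, and the LT and MYC values share their controls. Ncl read 10.21, 10.28 and 9.96 in LT tumors, against 10.00, 10.07, 9.80, 10.01 and 10.12 in LT NTL (0.15 ± 0.11, not called).

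Among later small subunit factors, Nob1 read 7.79, 7.60 and 7.61 in LT tumors, against 7.63, 7.62, 7.78, 7.62 and 7.87 in LT NTL (-0.04 ± 0.11). Pno1 read 8.49, 8.85 and 8.49 in LT tumors, against 8.61, 8.94, 8.87, 8.66 and 8.72 in LT NTL (-0.15 ± 0.11), and Nat10 read 8.21, 8.70 and 7.79 in LT tumors, against 7.99, 8.23, 8.10, 8.14 and 8.06 in LT NTL (0.13 ± 0.14). None was called. In Nat10 the tumors spanned a wider range than NTL, with replicate 2 highest and replicate 3 lowest. Of the processome, Utp20 and Rrp9 were lower (-0.30 ± 0.10 and -0.41 ± 0.14, adjusted p 0.0361 and 0.0336).

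In large subunit assembly, Nop2 read 7.72, 7.69 and 7.68 in LT tumors, against 7.90, 8.21, 8.02, 7.78 and 8.28 in LT NTL. The tumors lay below NTL (-0.35 ± 0.12, adjusted p 0.0404) and above controls (0.13 ± 0.13, not called), while NTL exceeded controls by 0.47 ± 0.11 (adjusted p 0.0191). Ftsj3 read 7.29, 7.68 and 7.45 in LT tumors, against 7.68, 7.94, 7.95, 7.59 and 7.94 in LT NTL. It was lower (-0.35 ± 0.11, adjusted p 0.0309), with tumor replicate 2 among the NTL arrays. Rrp1b read 6.55, 6.38 and 6.21 in LT tumors, against 6.45, 6.68, 6.78, 6.66 and 6.82 in LT NTL. Its NTL arrays were above all controls (0.63 ± 0.16, adjusted p 0.0286), and the tumor change of -0.30 ± 0.17 was not called.

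Pes1 read 8.01, 7.86 and 7.74 in LT tumors, against 7.80, 7.84, 8.01, 7.77 and 8.08 in LT NTL (-0.03 ± 0.09), and Bop1 read 8.40, 8.62 and 8.44 in LT tumors, against 8.43, 8.89, 8.85, 8.49 and 8.41 in LT NTL (-0.13 ± 0.10). Both overlapped and were not called. Nop16 was lower (-0.34 ± 0.12, adjusted p 0.0326).

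With LT tumor and NTL arrays alone in the fit, 1 gene was called (Rrp12), and with the tumors of a shared stem averaged, 5. Leaving out LT tumor 1 left 3 calls against NTL, LT tumor 3 left 7, and LT NTL replicates 2, 3 and 5 left 5, 5 and 4. The calls lost were those of Polr1a without tumor 1 or 2 or NTL 5 (0.0562 to 0.0962), Polr1e without tumor 1 or 3 or NTL 2, 3 or 5 (0.0547 to 0.168), Fbl without tumor 1 or 2 or NTL 1, 3 or 5 (0.0521 to 0.384), Utp20 without tumor 1 or 3 or NTL 2 or 5 (0.0699 to 0.188), Rrp9 without tumor 1 or NTL 2, 3 or 5 (0.0566 to 0.256), Ftsj3 without tumor 1 or 3 or NTL 2, 3 or 5 (0.063 to 0.253), Nop2 without tumor 1, 2 or 3 or NTL 2, 3 or 5 (0.0565 to 0.118) and Nop16 without tumor 1 or 3 or NTL 2 or 3 (0.0538 to 0.141). Against controls, they were Ubtf without tumor 2 (0.061), Npm1 without tumor 1 (0.111) and Rrp12 without tumor 2 (0.0645), whereas 10 genes were called without tumor 3; with only the LT tumor and control arrays in the fit, 0 were called (5 higher and 5 lower at limma's unadjusted p under 0.05). For NTL against controls, calls were lost for Nop2 without NTL 5 or control 1 (0.0597 to 0.0697) and Rrp1b without NTL 3 or 5 or control 1, 2 or 3 (0.0545 to 0.0958).

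Markers of other cells were called higher in these tumors as well. Of 14 leukocyte markers 12 rose and 0 fell against NTL, and their summed level was 12.49 to 13.37 in tumors and 11.17 to 11.87 in NTL, without overlap. Ptprc, the common leukocyte antigen, was higher by 1.18 ± 0.21 (adjusted p 0.000229). Of 8 fibroblast and stellate cell markers 5 rose, with sums of 11.02 to 13.03 in tumors and 10.65 to 10.84 in NTL. The cholangiocyte sum was 9.06 to 9.46 in tumors and 8.20 to 8.74 in NTL, without overlap, and of its 6 markers Prom1 was called higher (1.84 ± 0.51, limma adjusted p 0.0101). The hepatocyte sum was 16.51 to 16.80 in tumors and 16.72 to 16.78 in NTL, with 1 of 13 markers called lower. The endothelial sum was 11.45 to 12.67 in tumors and 12.13 to 12.43 in NTL, with 3 of 8 markers called higher and 3 lower. Their part in the result was not tested. Xist was high in all 3 tumors and in 4 of 5 NTL arrays; a fit with a term for it gave 9 calls against NTL, 1 against controls and 2 for NTL against controls.

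Of 67 ribosomal protein genes, 2 were higher and 1 lower in LT tumors against NTL, with a median change of 0.02, while 20 were higher against controls. Of the further small subunit genes 0 of 36 rose and 10 fell, among them Riok2 (-0.62 ± 0.13, adjusted p 0.00123, or 0.0576 with only those groups in the fit), which was thus called lower in the tumors of all 3 models against NTL. Of 40 further large subunit genes 2 rose and 3 fell. Among all genes, 10.7% were called higher and 9.73% lower in LT tumors against NTL.

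The tumor changes of the models were then compared directly. The MYC change exceeded the LT change in 23 of 37 genes and was below it in 0, beside 6.60% and 5.76% of all genes. It exceeded the DEN change in 10 and was below it in 0, beside 7.98% and 7.12%. The LT change was above the DEN change in 1 gene and below it in 6, beside 7.61% and 6.30%. Median differences were 0.59, 0.28 and -0.21 log2 units. The 23 calls between MYC and LT were 16 with only those groups in the fit, and 16 to 26 with 1 array left out. The LT NTL arrays lay above controls, and their part in this difference was not tested. The 10 calls between MYC and DEN were 5 without MYC NTL 1 or 2 and 6 without MYC tumor 2 or 5. The 7 between LT and DEN were 3 without LT NTL 3, 4 without LT NTL 5, DEN NTL 2 or 5, or DEN tumor 2 or 4, and 1 with arrays of a shared stem averaged.

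Nhp2 gave the largest differences, 1.44 ± 0.23 between the MYC and DEN changes and 1.26 ± 0.24 between the MYC and LT changes (adjusted p 5.22e-05 and 0.00101). Ftsj3 had the next smallest p between MYC and DEN (0.70 ± 0.15, adjusted p 0.0016), and Rrp12 (0.99 ± 0.17, adjusted p 0.000368) and Polr1a (0.75 ± 0.14, adjusted p 0.000696) had the smallest p between MYC and LT. Pno1, called lower in DEN tumors and not called in MYC or LT tumors, differed by 0.55 ± 0.14 between MYC and DEN and by 0.45 ± 0.14 between LT and DEN (adjusted p 0.00801 and 0.0307). The LT and DEN difference of Pno1 was not called without DEN tumor 2, LT tumor 2, or LT NTL 1 or 4 (limma adjusted p 0.0517 to 0.143), or with each array centred on its median (0.0576). With both own probe sets of Pno1 averaged, the MYC and DEN difference was 0.27 and not called (limma adjusted p 0.116). Its dimmer probe set changed against NTL by -0.33 in MYC, -0.32 in DEN and -0.04 in LT tumors. Nop58, which rose against NTL in both MYC and DEN tumors, was not called between them (0.03 ± 0.27), nor was Npm1 (0.38 ± 0.15). Against controls, Nop58 was called in MYC tumors and not in DEN tumors. Its mean was 6.60 in DEN NTL and 7.01 in DEN controls, and 7.04 in MYC NTL and 6.82 in the shared controls. Among ribosomal protein genes the MYC change exceeded the DEN change in 12 of 67 and the LT change in 38.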

How the data were processed

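Whole-tissue RNA of 35 mouse liver samples was hybridised to Affymetrix Mouse Gene 1.1 ST arrays, 1 array per sample. Per the submitters' processing notes the authors normalised the arrays by RMA, which leaves 1 deposited log2 value per probe set and array. Array medians lay between 5.59 and 5.73, and the number of arrays limits the precision. Probe sets were named from GEO's platform annotation, which can be old: of 35556, 21218 had 1 gene symbol, 1881 had several and 12457 had none. Each gene was read through its brightest probe set with 1 symbol (18820 genes, of which 1386 had more than 1 such probe set). Levels of different probe sets are not comparable.

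Groups came from the labels. Using limma 3.58.1 in R 4.3.3, 1 linear model with a mean per group was fitted to all 35 arrays, with 9 contrasts between groups and 3 contrasts of tumor changes between models. Empirical Bayes p-values were adjusted by the Benjamini-Hochberg method over 18820 genes, with calls at an adjusted p under 0.05. The fit was tested on simulated data. Nothing in the labels says that each sample came from its own animal, so p-values measure the spread between these samples. The 38 genes and all gene lists were chosen with earlier results of these data known. Values in every array are given for well-known members, for the 6 of largest change in MYC tumors against NTL, for the 6 of largest change among those called in DEN or LT comparisons, and for those called against the direction of most; of other lists, the 3 called genes of largest change were named.

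Alternatives were centring each array on its median, leaving out dim genes, averaging all own probe sets, averaging arrays of a shared identifier stem, the replicate number as a block, a term for Xist above 9 on the log2 scale, a trended robust prior, fitting only the groups compared, and leaving out each array in turn. Arrays of the same replicate number were correlated by their deviations from group means. LT tumors and controls gave 0.137 to 0.233 over 3 pairs, and LT NTL and controls gave -0.379 to 0.291. Pairing by replicate number was thus not shown. With the replicate block, the 5 calls in LT tumors against controls were again 5. No arrays held identical values, and the highest correlation between arrays was 0.9947. Promoter windows are those of RefSeq, GRCm38.p6.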

Additional observations from a re-analysis of the deposited data

Results flagged for a closer look

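In groups of 4 or 5 arrays, 7 of 168 gene and group pairs had 1 array far from the others, by Dixon's criterion, which chance meets in about 1 of 20 groups. Among the ribosome biogenesis genes, Fbl was low in MYC tumor 4 (8.48, against 8.80 to 8.88 in the other 4), Ncl was low in DEN tumor 4 (9.60, against 9.75 to 9.81), Nolc1 was low in shared control 3 (7.15, against 7.55 to 7.59) and Gar1 was high in shared control 4 (6.72, against 6.23 to 6.29). Shared control 4 was also high for Myc (9.56, against 7.18 to 7.31). Mki67 was high in MYC tumor 3 (10.04, against 8.00 to 8.55), and Ptprc was high in DEN NTL 2 (8.14, against 7.10 to 7.33).

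The tumor minus NTL change differed between models in limma contrasts of the changes (log2 differences in brackets; all pass an adjusted p under 0.05). The MYC change exceeded the DEN change for Polr1b (0.857), Fbl (0.337), Dkc1 (0.614), Nhp2 (1.438), Rrp12 (0.502), Ltv1 (0.561), Pno1 (0.546), Nat10 (0.585), Ftsj3 (0.704) and Nop2 (0.487). The MYC change exceeded the LT change for Polr1a (0.752), Polr1b (0.999), Polr1c (0.436), Polr1e (0.752), Fbl (0.502), Nop56 (0.798), Dkc1 (0.769), Nhp2 (1.256), Npm1 (0.591), Nolc1 (0.87), Nop14 (0.468), Utp20 (0.495), Nob1 (0.71), Rrp12 (0.994), Bysl (0.955), Ltv1 (0.632), Pes1 (0.402), Wdr12 (0.728), Ftsj3 (0.751), Nop2 (0.738), Nop16 (0.69), Nip7 (0.607) and Rrp1b (0.917). Between LT and DEN, the difference was Polr1a (-0.62), Polr1c (-0.351), Nolc1 (-0.591), Nob1 (-0.434), Rrp12 (-0.492), Pno1 (0.453) and Rrp1b (-0.677).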

How the results depend on the processing

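Of 166 called values of single genes, 90 kept direction and call under all alternatives run and 108 under all but the leave-outs. None changed sign when an array was left out. Averaging all own probe sets, which mixes in a much dimmer one, reversed Pes1 in MYC tumors against controls (-0.053) and in the MYC change against the LT change (-0.02). Counts of called ribosome biogenesis genes moved by over 1.5 times as follows; where no construction is named, the cause was not tested. For LT tumors against NTL (11), averaging shared stems, with fewer arrays, gave 5, fitting only those groups gave 1, and leaving out 1 array gave 3 to 13. For LT tumors against controls (5), these gave 3, 0 and 4 to 10, and the Xist term gave 1. For LT NTL against controls (4), the Xist term gave 2 and leave-outs 2 to 6. For MYC NTL against controls (3), leave-outs gave 0 to 3, with 0 without MYC NTL 1. The MYC change against the DEN change (10) ranged over 5 to 13 in leave-outs, with 5 without MYC NTL 1 or 2 and 6 without MYC tumor 2 or 5. The LT change against the DEN change (7) gave 1 with shared stems averaged, 3 with only those groups, and 3 to 7 in leave-outs. The other leave-out ranges were 15 to 22 for MYC tumors against NTL, 24 to 29 against controls, 8 to 12 and 9 to 13 for DEN tumors against NTL and controls, and 16 to 26 for the MYC change against the LT change. With the replicate block, the counts were 22 and 29 for MYC tumors against NTL and controls, 12 and 12 for DEN tumors, 12 and 5 for LT tumors, 3, 0 and 4 for MYC, DEN and LT NTL against controls, and 12, 23 and 7 for the 3 differences between models. Over all genes, centring arrays on their medians turned 2006 higher and 1832 lower calls in LT tumors against NTL into 1729 and 2508. The MYC NTL and LT tumor groups hold 3 arrays each, which limits their precision.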

Other observations

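The probe set shared by Tsr1, a ribosome assembly factor, and Srr, which encodes serine racemase, read 7.06, 7.62, 7.21, 7.57 and 7.71 in MYC tumors, against 6.62, 6.81 and 6.95 in MYC NTL, so that every tumor lay above every NTL array. Its changes were 0.64 in MYC, 0.02 in DEN and -0.33 in LT tumors against NTL, and which of the genes it reads cannot be told apart.

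Of 13 genes for Myc and its partners, 2 rose and 2 fell in MYC tumors against NTL, 4 rose and 0 fell in DEN tumors, and 0 rose and 3 fell in LT tumors. Among all genes, 11.5% were called higher and 10.3% lower in MYC, 15.6% and 16.7% in DEN, and 10.7% and 9.73% in LT, so in MYC tumors the list stood near the share of all genes.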
